A study of Homo sapiens with 6 samples.

Results

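In DU 145 cells cross-linked with both DSP and formaldehyde, 1531 UCHL1 peaks were called, and 1276 of them (83.3%) shared no base with any peak of the other lists. Those 1276 dual-only peaks are the subject here. They were chosen by position alone, as peaks that overlap neither the 3086 UCHL1 peaks of DU 145 cells cross-linked with formaldehyde nor the 2196 peaks of dual cross-linked HEK293T cells, out of 6813 peaks in all lists. Because the choice used the measured peak lists, the absence of these peaks from the other lists is a description and not a finding.

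UCHL1 chromatin immunoprecipitation followed by sequencing (ChIP-seq) was done in 3 conditions, each with 1 UCHL1 library called against 1 input library. DU 145 is a prostate cancer line from a brain metastasis, and HEK293T is an embryonic kidney line that carries the SV40 T antigen. The labels give 1% formaldehyde for each condition and 1 mM DSP, a protein-to-protein cross-linker, for the dual conditions, while the study's methods name a lower formaldehyde concentration for the dual protocol. By those methods the formaldehyde chromatin was sonicated and the dual chromatin was cut with micrococcal nuclease, so cross-linking and fragmentation cannot be told apart. With 1 library per condition no difference between conditions has a replicate check, no p-value is given, and the 95% Wilson intervals of shares cover counting error only.

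UCHL1 is a small deubiquitinase that is abundant in neurons and also made by many tumor cells. The ends of human chromosomes carry long arrays of the hexamer TTAGGG, to which the shelterin proteins TRF1 and TRF2 bind. Short arrays of the same hexamer, called interstitial telomeric sequences, lie inside chromosomes and just below their ends. Strands rich in runs of G can fold into 4-stranded structures called G-quadruplexes, and tracts with only purines on one strand can form other unusual DNA shapes.

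The repeat-bearing and repeat-free dual-only peaks were sorted into classes by the letters of their sequence. Telomeric peaks hold at least 2 TTAGGG or CCCTAA hexamers in a row. Polypurine peaks hold a run of at least 30 bases made up of purines alone, or of pyrimidines alone on the plus strand. G and C together are at least 20% of the run, and peaks with a telomeric pair are not counted in that class.

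Other tandem repeat peaks hold a perfect run of at least 24 bases of a unit of 1 to 6 bases and belong to neither class above. The leading pair by fold is printed with the AATGG-type peak of at most 300 bases that held most tags, because these differ most in strength. Sequences are from the plus strand of hg19, and capitals mark the perfect run.
tandem with a 6-base unit, chrX:43118515-43118585: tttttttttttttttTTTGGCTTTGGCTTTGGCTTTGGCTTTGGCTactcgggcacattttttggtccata
tandem with a 5-base unit in an intron of VWA3B, chr2:98914877-98914979: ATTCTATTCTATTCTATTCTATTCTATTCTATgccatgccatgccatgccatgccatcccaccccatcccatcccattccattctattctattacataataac
AATGG-type tandem, chrY:13869626-13869912: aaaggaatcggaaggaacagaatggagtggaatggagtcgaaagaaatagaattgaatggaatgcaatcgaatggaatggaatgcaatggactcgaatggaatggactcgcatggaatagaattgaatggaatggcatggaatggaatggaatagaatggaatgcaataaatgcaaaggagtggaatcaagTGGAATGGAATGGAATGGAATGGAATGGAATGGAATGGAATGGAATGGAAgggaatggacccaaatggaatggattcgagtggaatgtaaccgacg

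The 6-base repeat on chromosome X had a fold of 51.79 from 13 tags, and the repeat in VWA3B 31.87 from 11 tags. AATGG, the unit of human satellite II and III DNA, gave the opposite pattern on chromosome Y, with 84 tags and a fold of 7.41. The 50 bases around that peak's summit occurred 65 times in hg19, counting both strands.

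Most dual-only peaks held none of these repeats. Printed for this class are the pair with the highest fold and the highest-fold peak in a protein-coding exon, to show letters without an array. The exon peak was picked after its value was seen, as was the AATGG-type peak. Capitals mark runs of at least 3 C or 3 G.
none of these, intron of IMMP2L, chr7:111181096-111181212: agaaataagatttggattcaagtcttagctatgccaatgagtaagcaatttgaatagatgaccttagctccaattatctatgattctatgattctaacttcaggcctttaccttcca
none of these, intron of LINC02240, chr5:124733239-124733387: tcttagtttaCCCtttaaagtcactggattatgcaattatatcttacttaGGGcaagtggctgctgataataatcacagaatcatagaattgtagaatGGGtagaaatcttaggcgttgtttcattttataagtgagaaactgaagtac
none of these, exon of OR6C6, chr12:55688628-55688682: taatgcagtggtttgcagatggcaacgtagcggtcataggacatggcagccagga

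IMMP2L encodes a mitochondrial inner membrane peptidase, and its intronic peak had a fold of 55.77 from 16 tags with no run of 3 G or 3 C. LINC02240 is a long noncoding RNA gene, and its peak had a fold of 51.79 from 15 tags. The peak in OR6C6, an olfactory receptor gene, had a fold of 47.81 from 12 tags. The summit sequences of these 3 peaks occur once in hg19.

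The dual-only peaks were short and rested on few tags. Their median length was 97 bases, and tags per peak ranged from 7 to 2511 with a median of 8. Of the 1276 peaks, 541 (42.4%) had 7 tags, the lowest number in the list, and 1012 (79.3%) had at most 10. Most of these peaks were therefore called from a handful of reads.

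Fold enrichment ranged from 2.04 to 67.73 with a median of 16.55, and the quartiles were 13.3 and 22.2. The deposited score (−log10 of the p-value from MACS, multiplied by 10) had a median of 62.14 and was under 60 in 572 peaks (44.8%). The false discovery rate (FDR) deposited by the authors was at most 5% for 810 peaks (63.5%, 60.8 to 66.1). Among the 255 shared peaks, those that overlap either other list, the same share was 92.2% (88.2 to 94.9), with a median fold of 29.4 and a median of 23 tags. The dual-only peaks were the weaker part of their list by each of these measures.

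The shared peaks were themselves of different kinds. The 135 that overlapped only the formaldehyde list had a median fold of 32.3 and a median of 14 tags. By contrast, the 64 that overlapped only the HEK293T list had a median fold of 5.40, 103 tags and a length of 429 bases. The 56 peaks in all 3 lists had a median fold of 61.0 and 40.5 tags. With a median fold of 16.55, the dual-only peaks lay between the HEK293T-only overlaps and the other shared kinds.

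**Figure D1:**
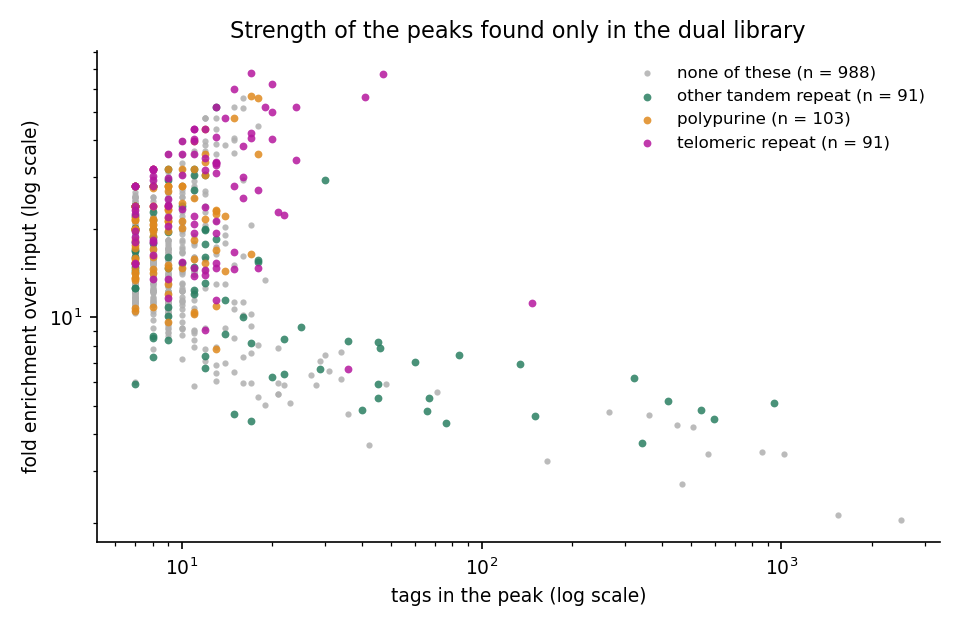
Fold enrichment over input (vertical, log scale) against tags (horizontal, log scale) for each dual-only peak with a readable sequence, colored by sequence class. The 26 peaks with at least 50 tags all have folds of 11.19 or lower, while the highest folds, up to 67.73, are telomeric peaks.

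Tags and fold separated a small group of broad peaks from the rest, as the plot of fold against tags shows. The 26 dual-only peaks with at least 50 tags made up 2.04% of the peaks and held 52.1% of their 24429 tags. Their folds ran from 2.04 to 11.2 with a median of 4.64, and their median length was 1112 bases. Of these 26, 23 lay within 1 Mb of an undetermined stretch of hg19 of at least 1 Mb, which are mostly centromeres and heterochromatin. On chromosome Y there were 13 and on chromosome 10 there were 7, and 11 carried an AATGG run.

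The peak with the most tags, chr6:58776674-58780165, had 2511 tags and a fold of 2.04. Next came chr1:121484055-121485444 with 1540 tags and a fold of 2.12. Both lie beside centromeres. On chromosome 10, chr10:42395357-42397296 had 1022 tags at a fold of 3.42, and chr10:42368712-42372270, with an AATGG run of 47 bases, had 946 tags at a fold of 5.11. Tag-rich dual-only peaks thus had low folds over input.

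By sequence, the dual-only peaks differed from random intervals that matched them in length and chromosome, of which 127300 were drawn from hg19 as a description of the genome. Of the 1273 dual-only peaks with readable sequence, 91 were telomeric (7.15%, 5.86 to 8.70), against 4 of the random intervals (0.00314%). Polypurine runs were in 103 (8.09%, 6.72 to 9.72), against 0.452% of random intervals. Other tandem repeats were in 91 (7.15%, 5.86 to 8.70), against 0.862%. The remaining 988 (77.6%, 75.2 to 79.8) had none of these, against 98.7% of random intervals.

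Each repeat class was also less frequent among dual-only than among shared peaks. Of 250 readable shared peaks, 28.4% (23.2 to 34.3) were telomeric, 16.8% (12.7 to 21.9) polypurine and 17.6% (13.4 to 22.8) other tandem repeats. In each class the 2 intervals did not overlap. Shared peaks were also stronger, with 66.7% at a score of at least 100 against 13.2% of dual-only peaks. Dual-only peaks at that score were 27.4% telomeric, 11.9% polypurine and 6.55% other tandem repeats. Shared peaks at that score were not sorted into classes, so the part of strength in these differences was not tested. The class with none of these held 37.2% of shared peaks (31.4 to 43.3). In 2538 intervals that flank the dual-only peaks at a distance of 5 kb, 0 were telomeric, which allows a share of up to 0.118%, while 0.552% were polypurine and 1.497% were other tandem repeats.

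**Figure D2:**
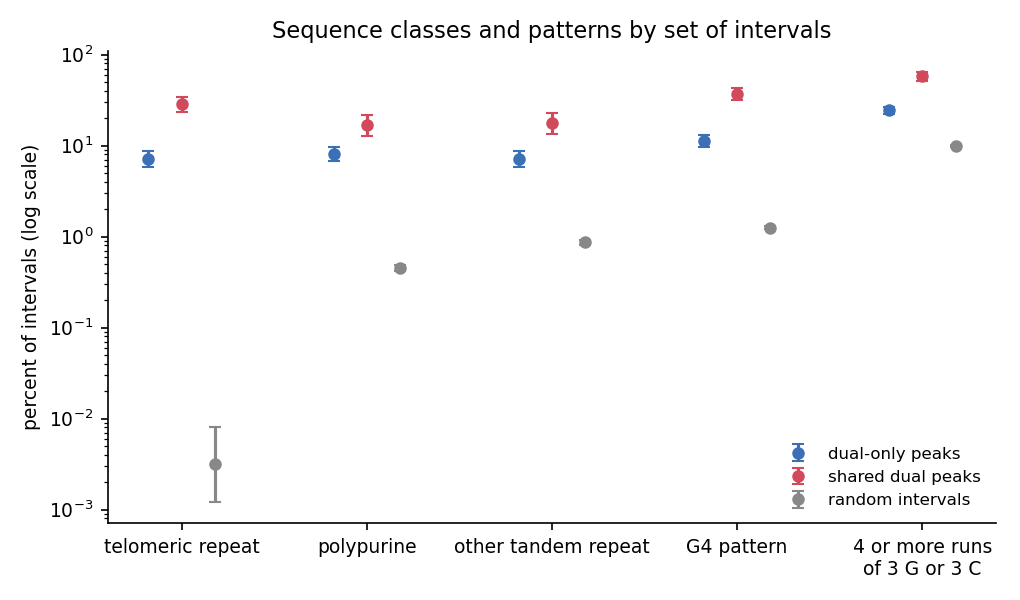
Percent of intervals (log scale) in each sequence class or with each G-run pattern, for 1273 dual-only peaks, 250 shared dual peaks and 127300 random intervals. Bars are 95% Wilson intervals, and dual-only peaks lie between shared peaks and random intervals for each class and pattern, at 7.15%, 28.4% and 0.00314% for the telomeric class.

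Runs of G were measured next. A G-quadruplex pattern, 4 runs of at least 3 G or 3 C with loops of 1 to 7 bases, was present in 144 dual-only peaks (11.3%, 9.69 to 13.2), in 37.2% of shared peaks and in 1.26% of random intervals. It was found in 55 of the 91 telomeric and 44 of the 103 polypurine dual-only peaks, and long telomeric arrays contain the pattern by their letters. In the class with none of these repeats it was present in 28 of 988 (2.83%, 1.97 to 4.07), against 1.15% of random and 1.93% (1.46 to 2.55) of flanking intervals of that class, and 1 of 93 shared peaks (1.08%, 0.190 to 5.84). The intervals of the dual-only, flanking and shared sets overlapped in this class. At least 4 separate runs of 3 G or 3 C, with no limit on loops, were in 16.1% (13.9 to 18.5) of that class against 9.64% of random and 11.4% (10.2 to 12.7) of flanking intervals. Shared peaks of that class held them in 24.7% (17.1 to 34.4), an interval that overlaps that of the dual-only peaks.

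The GC content of dual-only peaks had a median of 47.1%, with quartiles of 39.1% and 54.1%. The median was 40.3% in random intervals, 42.2% in the flanking intervals and 45.8% in shared peaks. In the class with none of these repeats it was 47.6% against 40.4% in random intervals of that class, so the difference was as large without the repeats. The share of sequences without a CG dinucleotide was 47.1% (44.4 to 49.9), close to 49.6% in random intervals.

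The telomeric peaks were the strongest class by median fold and by the share at an FDR of at most 5%. Their median fold was 27.9, with quartiles of 18.6 and 35.9, their median was 11 tags, and 87 of the 91 had an FDR of at most 5%. Polypurine peaks had a median fold of 21.2 and 84 of 103 at that FDR. Other tandem repeats had a median fold of 14.7 and 60 of 91. The class with none of these had a median fold of 16.0, and 577 of 988 (58.4%) reached that FDR. Several folds recurred exactly at unlike sites with equal tags, such as 27.89 with 7 tags, 31.87 with 8 and 35.86 with 9. Such folds may rest on a lowest background value and not on input reads at the site, which was not tested.

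Seen from the fold, the telomeric share was 1.77% of the 113 dual-only peaks under a fold of 10 and 3.31% of the 363 from 10 to 15. It was 3.28% of 396 peaks from 15 to 20, 9.29% of 280 from 20 to 30 and 26.6% of 109 from 30 to 50. At a fold of 50 or more, 9 of 15 peaks (60%) were telomeric. The other tandem class had its largest share, 31.0%, under a fold of 10. Sequence class and fold were thus linked across the dual-only peaks, which are sites within 1 library and not replicates.

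**Figure D3:**
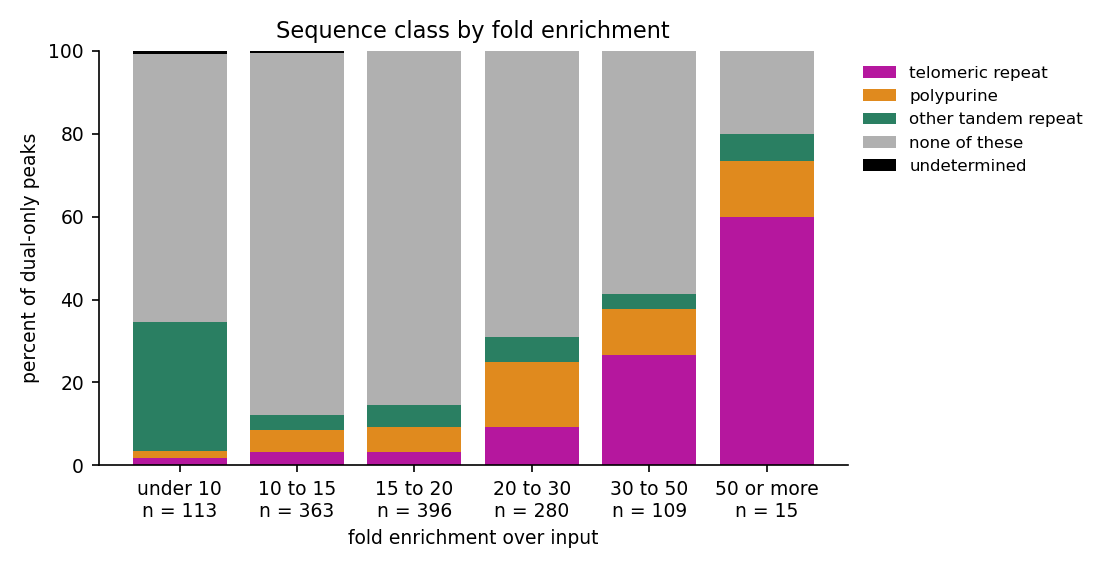
Percent of dual-only peaks in each sequence class (stacked bars that add to 100%) in 6 ranges of fold enrichment over input, with the number of peaks under each bar. The telomeric share goes from 1.77% under a fold of 10 to 60% at 50 or more, and the other tandem class is at 31.0% under a fold of 10.

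Above a fold of 51.79 lay 8 dual-only peaks, of which 5 were telomeric, 2 were polypurine and 1 had none of these. A further 5 were tied at 51.79, of which 3 were telomeric, 1 was another tandem repeat and 1 had none of these. The folds in this tie may rest on the lowest background value named above, which was not tested. The telomeric peak chr7:1228267-1228329, near ZFAND2A, had a fold of 62.22 from 20 tags. In an intron of IQSEC3, a gene for a synaptic guanine nucleotide exchange factor, chr12:217244-217304 had 5 hexamers in a row and a fold of 59.76 from 15 tags. At chr16:87558480-87558627, near ZCCHC14, 8 hexamers went with a fold of 56.3 from 41 tags. All 8 peaks above 51.79 and all 5 at it had a summit sequence that occurs once in hg19. The nearest peak of another list was 46050 bases from the peak near ZFAND2A and 121579 from that in IQSEC3. For the peak near ZCCHC14 it was only 321 bases away.

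In introns lay a pair of the telomeric peaks tied at 51.79. The peak chr2:241553153-241553308, in annotated introns of CAPN10, a calpain protease gene, and GPR35, a receptor gene, had 9 hexamers and a fold of 51.79. The peak chr2:87142387-87142446 in RGPD1 had 3 hexamers and the same fold of 51.79 from 13 tags. The peak in CAPN10 and GPR35 lay 114 bases from a HEK293T peak and 197 from a formaldehyde peak. That in RGPD1 lay more than 1 Mb from any peak of the other lists. Gene names state where a peak lies and not that the gene is affected.

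Telomeric dual-only peaks carried short arrays. Their median was 4 hexamers with a median run of 3 and a longest run of 8, while shared telomeric peaks had a median of 9 hexamers, a median run of 4 and a longest run of 13. Runs of at least 4 hexamers were in 18 of 91 dual-only telomeric peaks (19.8%) and in 44 of 71 shared ones (61.97%). Median fold was 27.9 against 65.1 and the median number of tags 11 against 26. The dual-only telomeric peaks had shorter arrays and lower folds than the shared ones.

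Within the dual-only telomeric peaks, run length and fold did not keep step. The 39 peaks with a run of 2 had a median fold of 23.9, the 34 with a run of 3 had 30.4, the 9 with a run of 4 had 19.4 and the 9 with a run of at least 5 had 33.0. Ranges overlapped in all 4 groups. The array read TTAGGG on the plus strand in 46 peaks and CCCTAA in 45, counted by the more frequent orientation, and 2 peaks held both. Both orientations were thus about equally frequent.

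Of the 91 telomeric dual-only peaks, 62 lay farther than 500 kb from a chromosome end and 29 within that distance, 8 of them within 100 kb. They fell on 21 chromosomes, with 44 in introns, 45 between genes and 2 in exons. Among shared telomeric peaks, 37 of 71 were farther than 500 kb from an end and 24 were within 100 kb. Telomeric dual-only peaks were thus mostly inside chromosomes by this distance, yet nearer to ends than random intervals, of which 0.710% lay within 500 kb of an end. Only 4 of the 127300 random intervals were telomeric. Whether these peaks lie nearer to ends than other telomeric arrays of hg19 was therefore not tested.

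Other long arrays in this class had lower folds. In GIPC2, which encodes a PDZ domain protein, chr1:78594395-78594476 held 6 hexamers in a row at a fold of 24.08 from 9 tags. Near LCN2, a gene for an iron-trafficking lipocalin, chr9:130916534-130916620 held 5 in a row at a fold of 40.79 from 17 tags. Near OTOS, chr2:241161271-241161345 held 5 in a row at a fold of 33.04. In BET1L, chr11:191736-191909 held 5 in a row and 15 in all, with a fold of 14.68, and its summit sequence occurred 7 times in hg19. Near DISP3, chr1:11500115-11500275 held 4 in a row and a fold of 50.06.

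A further 16 dual-only peaks that did not hold a perfect pair of hexamers had at least 3 hexamers with at most 1 mismatch in a row. That was 1.35% (0.835 to 2.19) of the 1182 peaks outside the telomeric class, against 0.00786% of random intervals. Degenerate telomeric arrays therefore also occurred among the dual-only peaks.

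Polypurine dual-only peaks differed in unit. A perfect run of AAAGG, counted over rotations and both strands, was the longest run in 21 of the 103, with a median fold of 21.6, and AAGGG in 21, with a median fold of 23.9. The third in rank of fold, chrX:117293173-117293288 near KLHL13, held a purine run of 108 bases and a fold of 47.81 from 15 tags. Of the 103 polypurine peaks, 53 were in introns and 49 between genes, and 21 were on chromosome X.

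The other tandem repeats fell into unlike groups. AATGG runs were in 20 dual-only peaks (1.57%, 1.02 to 2.41), with a median fold of 6.30 and 63 tags, against 0.0102% of random intervals, 0.867% of flanking intervals and 13.6% of shared peaks. Runs of A were in 21 peaks with a median fold of 12.6, 13 of them on chromosome Y, against 0.273% of random intervals and 0 of 250 shared peaks, which allows up to 1.20%. AACAG runs were in 5 and AAAC runs in 7, 6 of these on chromosome Y. In LINC02147 and LINC02208, overlapping noncoding RNA genes, chr5:117449188-117449304 held an AGGAT run of 45 bases and a fold of 31.87 from 9 tags.

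By place, the dual-only peaks lay close to the genome as a whole. Summits were inside annotated genes for 744 peaks (58.3%, 55.6 to 61.0) against 60.3% of random intervals. Introns held 647 (50.7%, 48.0 to 53.4) against 54.6%, and 52.3% of flanking intervals. Intergenic sequence held 532 (41.7%, 39.0 to 44.4) against 39.7%. Promoters, taken as 1 kb around protein-coding gene starts, held 17 (1.33%, 0.833 to 2.12) against 1.36%. The intron share was below that of random intervals by more than its counting interval. With autosomes only the intron share of the peaks was 54.6%. No random share was taken for autosomes alone, so whether the difference held there was not tested. No excess in genes or promoters was detectable at this number of peaks.

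Exons were the exception, with 97 summits (7.60%, 6.27 to 9.19) against 5.71% of random and 5.59% of flanking intervals. Exons of protein-coding genes held 72 (5.64%, 4.50 to 7.05) against 3.96%, and 1.18% (0.401 to 3.40) of shared peaks. Of the 97, 91 belonged to the class with none of the repeats. Among the 168 peaks with a score of at least 100, 9 were in exons (5.36%, 2.84 to 9.87), an interval that includes the share in random intervals. GC content, which is higher in exons, was also higher in the dual-only peaks, and its part in the exon share was not tested.

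The strongest exonic peaks, after that in OR6C6, clustered in 1 gene. CYP3A5, a drug-metabolizing cytochrome P450 gene at chr7:99245817-99277619, held 4 dual-only peaks within 1.44 kb. At chr7:99267046-99267174 the fold was 30.31 from 11 tags, at chr7:99268108-99268186 it was 38.98 from 13 tags, and at chr7:99268285-99268365 it was 44.6 from 18 tags. The last, at chr7:99268404-99268482, had a fold of 40.6 from 15 tags. All 4 summit sequences occur once in hg19, none held a repeat, and the nearest peak of another list was at least 420200 bases away.

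Next in the exon group came SLITRK2, a neuronal membrane protein gene on chromosome X, with a fold of 31.87 from 8 tags in a purine run of 51 bases. The highest fold within 1 kb of a protein-coding start was in ALX4, a homeobox gene, at chr11:44330701-44330791, with a fold of 43.82 from 12 tags and a GC content of 83.5%. Near SEMA5B, a semaphorin gene, the fold was 26.43. It was 22.02 in CRYBB3, a lens crystallin gene and 21.06 near GHDC. None of these promoter peaks held a telomeric, polypurine or other tandem repeat.

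Dual-only peaks fell in 810 of 64449 annotated genes, 559 of them protein-coding and 215 long noncoding. A single peak was found in 762, a pair in 38, and 3 or more in 10. Of the 126 genes that held a shared peak, 29 also held a dual-only peak, which was 23.02% of the former and 3.58% of the 810. Most genes with a dual-only peak thus held a single one. Gene length was not allowed for, and genes hit more than once or by both sets were not counted for random intervals. Whether these numbers differ from random placement was therefore not tested.

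The genes with 3 or more dual-only peaks were of several kinds. BET1L, a vesicle trafficking gene near the end of chromosome 11, held 4 with folds of 11.45 to 23.38, of which 3 were telomeric. The 4 peaks in BET1L lay 230, 342, 474 and 15715 bases from the nearest peak of another list. FAM157C, a subtelomeric noncoding gene on chromosome 16, held 4 telomeric peaks within 0.767 kb, with folds of 9.03 to 19.41, and their summit sequences occurred 2 to 4 times. LRMDA, a melanocyte differentiation gene 1129 kb long, held 4 with folds of 15.42 to 31.87 and no repeat class. DMD, the dystrophin gene, 2242 kb long, held 3 with folds of 16.52 to 23.9, and RFLNA, a refilin gene, held 3 with 12.24 to 26.92. The other 4 were unnamed noncoding genes, of which a pair overlapped BET1L or FAM157C.

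Gene lists were compared with the random intervals, counting summits inside a gene or within 5 kb. Of 18 shelterin and telomere maintenance genes, 2 had a dual-only peak, which was 0.157% of the peaks (0.0430 to 0.570) against 0.0424% of random intervals. The lower end of that interval was barely above the random share, and 2 peaks are too few to call an excess. Shared peaks numbered 1 in this list (0.392%). The peak within 5 kb of NHP2, a gene of telomerase ribonucleoprotein assembly, lay in an intron of the neighboring gene RMND5B and had a fold of 23.99 from 12 tags and no repeat. That in ATRX, a chromatin remodeler gene, was a polypurine peak with a fold of 27.89 from 8 tags, and its summit sequence occurred 23 times.

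Ubiquitin hydrolase genes held 6 dual-only peaks (0.470%, 0.216 to 1.02) against 0.419% of random intervals, among them USP48 with a fold of 27.89 and 3 pseudogenes of USP9Y. This list was not more frequent than in random intervals beyond its counting interval.

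Subtelomeric gene families gave 6 dual-only peaks (0.470%, 0.216 to 1.02) against 0.0361% of random intervals, and all 6 were telomeric. Next to FAM157C they were in FAM157D, with 18 hexamers and a fold of 22.78, and near WASH2P and DDX11L2 on chromosome 2, with 18 hexamers and a fold of 22.36. The peak in FAM157D lay 139 bases from a formaldehyde peak, and that near WASH2P and DDX11L2 lay 58 bases from one. Those in FAM157C were at least 77451 bases from any peak of the other lists. Shared peaks numbered 11 in these families (4.31%). Neuronal adhesion genes, mainly cadherins and neuroligins, gave 10 peaks (0.784%, 0.426 to 1.44) against 1.24%. Telomeric peaks were among them in NLGN4X, with a fold of 41.19 from 13 tags, CSMD3, with 27.89, and CDH12, with 18.35.

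By chromosome, X held the most dual-only peaks, 153 (11.99%, 10.3 to 13.9), where its share of hg19 is 5.29%. The ratio of these shares was 2.27. On chromosome Y there were 66 (5.17%) and a ratio of 6.43. Chromosomes 22, 21 and 19 had ratios of 2.44, 2.11 and 2.01, and chromosome 17 had 1.53. The lowest ratio, 0.516, was on chromosome 13 with 22 peaks. The formaldehyde list of DU 145 had 13.9% of its peaks on X and the HEK293T list 4.01%.

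**Figure D4:**
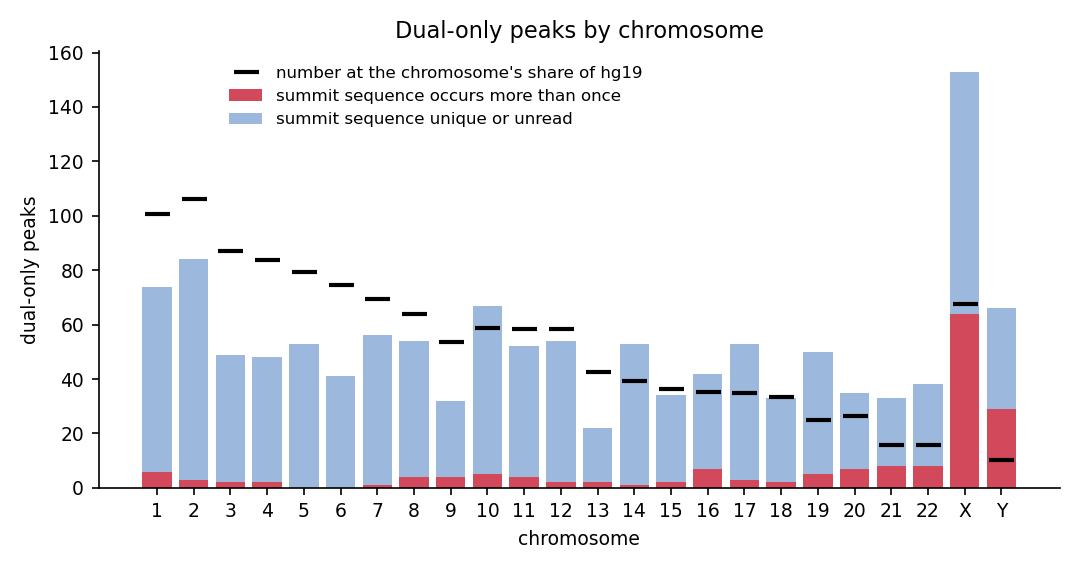
Number of dual-only peaks on each chromosome (bars), split by whether the 50 bases around the summit occur more than once in hg19, with a dash at the number that the chromosome's share of hg19 would give. Chromosome X has 153 peaks, 64 of them with a repeated summit, and autosomes together have 78 with a repeated summit.

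Copies of the summit sequence moved with the count on chromosome X. The 50 bases around the summit occurred more than once in hg19 for 171 of 1273 dual-only peaks (13.4%, 11.7 to 15.4), against 9.71% of 12730 random intervals. On X this was 64 of 153 (41.8%), against 9.61% of random and 13.4% of flanking intervals on X. On the autosomes it was 78 of 1057 (7.38%), against 7.83%, and on Y 29 of 63 (46.0%), against 41.4%. The repeated summits of X occurred a median of 10 times and up to 1644 times, and 53 of the 64 peaks held none of the repeat classes.

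With unique summits only, X held 89 of 1102 dual-only peaks (8.08%), a ratio of 1.53 to its share of hg19, and Y held 34, a ratio of 3.84. That share of hg19 counts all determined sequence, repeated sequence included. On Y, 41.4% of random intervals had a repeated summit, so 3.84 cannot be set against the ratio of 6.43 for all Y peaks. Dual-only peaks were thus above the genome share on X also without the repeated summits, by a smaller ratio. The median fold on X was 14.5 for repeated and 16.7 for unique summits. Along X, 10 Mb windows held 4 to 18 peaks with a median of 8.5, so the peaks were spread over the chromosome. How the aligner placed reads that fit several sites is not given in the sources used here, and its part in the X count was not tested.

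Chromosome Y peaks were different in makeup. Of the 66, 34 were other tandem repeats, 5 were telomeric, 3 were polypurine and 21 had none of these. Their median fold was 10.6 and their median 11.5 tags. Over all chromosomes, 70 dual-only peaks (5.49%, 4.36 to 6.87) lay within 1 Mb of an undetermined stretch of at least 1 Mb, against 2.44% of random and 5.12% of flanking intervals, and 29 of them were on Y. The 70 had a median fold of 7.395 and 29.5 tags, while the rest had 16.9 and 8.

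Chromosome ends were overrepresented, with 15 dual-only peaks (1.18%, 0.714 to 1.93) within 100 kb of an end against 0.0974% of random intervals. Shared peaks were there in 11.0% (7.71 to 15.4). Flanking intervals gave 1.06%, since they lie beside the peaks. Of the 15, 8 were telomeric, 6 had none of the repeats and 1 was undetermined.

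Distance to the other lists was then measured, since the rule only asks for no shared base. The closest dual-only peak, chr16:87558162-87558217, was 3 bases from another list's peak and had a fold of 18.02. Next was chrY:13484687-13485797, at 12 bases with a fold of 4.3. Just outside the rule, chr2:239392335-239392454 shared 4 bases and had a fold of 30.27, and chr21:48119678-48119786 shared 15 bases and had 19.92. Folds on both sides of the rule overlapped.

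**Figure D5:**
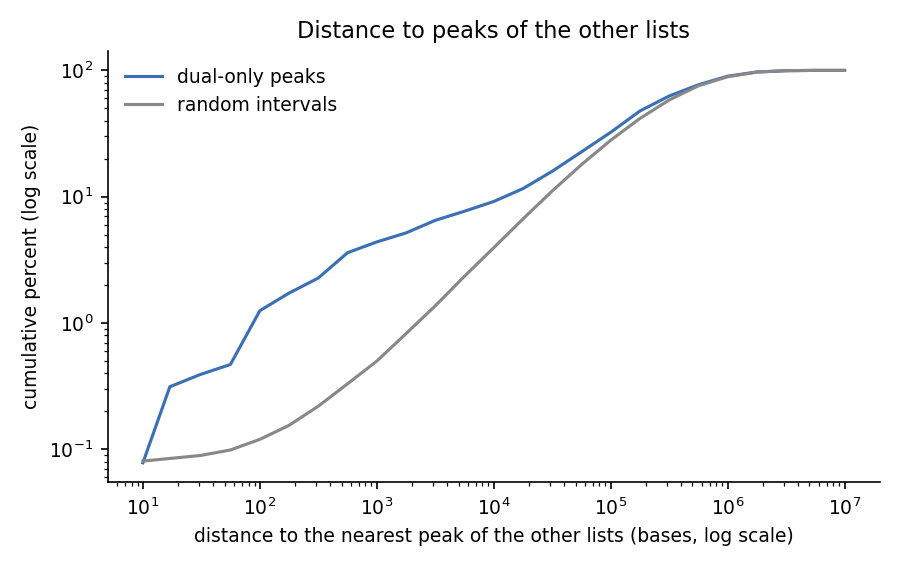
Cumulative percent (log scale) of dual-only peaks and of random intervals against the distance in bases (log scale) to the nearest peak of the DU 145 formaldehyde or HEK293T list. Within 1000 bases lie 4.39% of dual-only peaks and 0.500% of random intervals, and the curves meet near 1000000 bases, at 89.97% and 89.0%.

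A small number of dual-only peaks were neighbors of peaks in the other lists. Within 1 kb of such a peak lay 56 (4.39%), against 0.500% of random intervals, and within 100 kb 413 (32.4%), against 28.0%. Of the 56, 16 were telomeric, 10 were other tandem repeats, 5 were polypurine, 24 had none of these and 1 was undetermined, and 17 were near an undetermined stretch. Within 1 kb of a shared dual peak lay 33 (2.59%, 1.85 to 3.61), against 0.0291%. For most dual-only peaks the nearest peak of another list was therefore distant.

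Dual-only peaks were also grouped by their distance to each other. When peaks up to 100 kb apart were chained, 1052 (82.4%) stood alone and 24 groups of at least 3 held 88 peaks. Random intervals were not chained in this way, so whether the peaks lie closer together than random placement gives was not tested. The largest group had 7 peaks, chrY:58845414-59084662, with folds of 3.72 to 11.23, 4 of them other tandem repeats. On chromosome 10, chr10:38772487-38806010 held 6 with folds of 5.93 to 8.29. On chromosome X, chrX:30807002-30821984 held 5 with none of the repeats and folds of 7.90 to 17.95.

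Groups of telomeric peaks lay at several chromosome ends. At chr18:63859-105418, 4 telomeric dual-only peaks had folds of 11.19 to 40.31, and at chr3:197899612-197901036, 4 had folds of 15.29 to 25.41. At chr10:47642500-47667432, which is not at an end, 3 telomeric peaks had folds of 13.52 to 21.22. Groups within the telomeric class thus occurred more than once.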

How the data were processed

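Reads of 50 bases from the SOLiD platform were aligned by the authors with Lifescope (hg19, up to 2 mismatches). Each UCHL1 library was called against its input at a p-value of 1e-05 and an mfold of 10 to 30. The submitters' processing notes name MACS 1.4.2. What was done with reads that fit more than one place is not given in the sources used here. Depth per library is unknown, since the files give no totals and the study gives reads summed by cell line. The deposited positions are 1-based bases of hg19. The deposited number of tags is a count that was not scaled. The deposited score was read as −log10 of the p-value multiplied by 10, from its range of values, since its header is damaged. The deposited fold enrichment is a ratio of tags over the local background. The lists give no input counts, so folds that rest on a lowest background value cannot be marked. The deposited FDR is given in percent.

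From these files, overlap was taken as at least 1 shared base, and place as the summit against GENCODE 44 mapped to hg19, while the study used another annotation. Sequences came from the GRCh37 primary assembly, which has the same chromosome names and lengths as hg19. Intervals over 50% undetermined were left out of sequence classes. For each peak, 100 random intervals of its length were drawn on its chromosome within determined sequence, and intervals 5 kb to each side were read. Copy numbers of the 50 bases around the summit were counted on both strands, for 10 random intervals per peak. Shares carry 95% Wilson intervals, and a share of 0 is given the limit of 3 counts. No test was made between conditions, because sites in 1 library are not replicates.

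Members and lists were chosen with earlier results of these data known. The named peaks are from the 10 with the highest fold, where 5 peaks were tied for the last 2 places, the first 3 by fold in each sequence class, the first 5 in protein-coding exons and within 1 kb of a start, the 10 with most hexamers in a row, and genes with at least 3 peaks. Peaks named for their tags, their groups or their distance to other lists, and 2 of the printed sequences, were chosen after their values were seen. Some peaks, genes and sequences under these rules are not reported here. Alternatives covered the overlap rule, FDR, score, class definitions, place definitions and flanking intervals. Simulated sequences and intervals with known answers were used to check how classes, overlaps and copies were found. Chromosome 8 and untranslated regions were left out of the printed sequences. The TRF1 and TRF2 data were not used here. Figures were drawn with matplotlib 3.10.9, sequences were read with pysam 0.24.0, copies were counted with numba 0.67.0, and tables were handled with pandas 2.3.3 and numpy 2.4.6 in Python 3.11.15.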

Additional observations from a re-analysis of the deposited data

How the results depend on the processing

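The count of 1276 dual-only peaks became 810 at an FDR of at most 5% and 168 at a score of at least 100. At that FDR the telomeric share was 10.8%, the polypurine share 10.4%, the median GC content 45.4% and the median fold 19.9. At that score the telomeric share was 27.4%, the polypurine share 11.9%, the median GC content 44.03%, the exon share 5.36%, the share within 100 kb of an end 2.98% and the repeated summit share 7.74%. The telomeric share was 10.4% for at least 1 hexamer, against 3.92% of random intervals, and 1.41% for at least 4 in a row, against 0.000786%. Polypurine runs of at least 20 bases gave 9.82% and of at least 40 bases 6.52%, and tandem runs of at least 18 bases gave 12.6% and of at least 36 bases 2.75%. Protein-coding genes alone gave an intron share of 39.1% and an exon share of 5.64%. The start window of 5 kb gave 6.03%, the end window of 500 kb 4.31%, and 30 bases around the summit a repeated share of 32.4%, against 18.4% of random intervals. With autosomes only, an alternative chosen after seeing the data, the other tandem share was 4.16%, the intron share 54.6% and the repeated summit share 7.38%. Without peaks within 1 Mb of an undetermined stretch, also chosen after seeing the data, the other tandem share was 5.64%. The cause of these shifts beyond the changed definition or set of peaks was not tested. The midpoint rule and the 1 kb rule left every share within its counting interval. Against flanking intervals, the other tandem background was 1.497% in place of 0.862%, the GC background 42.2% in place of 40.3%, the intron background 52.3% in place of 54.6% and the repeated summit background 11.98% in place of 9.71%. No paired analysis was possible because each condition has 1 UCHL1 library and 1 input. Limits are the absent replicates, the unknown depth, the 7 to 10 tags under most peaks, and fragmentation that differed with the cross-linking in DU 145 cells.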
